A study of Mus musculus with 19 samples.

Results

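Glucose enters the brain, and lactate, pyruvate and ketone bodies cross its vessel wall, on membrane carriers, and the transcripts of 6 such genes were followed here in cerebral microvessels of mice. The members were taken by symbol: the glucose carriers Slc2a1 and Slc2a3, the monocarboxylate carriers Slc16a1, Slc16a3 and Slc16a7, and Bsg, which encodes the glycoprotein basigin. Each symbol matched 1 of the 39179 genes in the count tables, so the set holds 6 of 39179 genes, and all 6 passed the low-count filter of every comparison.

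Male C57BL/6 mice, bought at 7 weeks of age, were exposed to electronic cigarette vapour with nicotine (Nic, 3 libraries), to electronic cigarette vapour free of nicotine (Nic-free, 4), to smoke (smoke, 4), or to room air in sets of 4 titled air and Room-air. All 19 libraries were of polyadenylated RNA from cerebral microvessels, and no dose, length of exposure or day of collection is labelled. Both sets of unexposed mice carry the same label, and no label ties either to an exposure. By titles alone, Room-air was taken as the control of the vapour groups and air as the control of smoke. The labels do not say whether a library is 1 animal or a pool, so the p-values measure the spread between these libraries only.

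As background, endothelial cells of the blood-brain barrier carry glucose on the protein of Slc2a1 (GLUT1), which astrocytes also make, while neurons take it up mainly on that of Slc2a3 (GLUT3). Monocarboxylates move with a proton: the protein of Slc16a1 (MCT1) does this in endothelium, astrocytes and oligodendrocytes, that of Slc16a3 (MCT4) in astrocytes and other cells that export lactate, and that of Slc16a7 (MCT2) in neurons. Basigin brings the proteins of Slc16a1 and Slc16a3 to the cell surface and is itself abundant in brain endothelium.

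Total counts, in units of 1e6 reads, were 21.8 to 28.4 in Nic, 15.2 to 19.1 in Nic-free, 7.9 to 12.6 in smoke, 9.8 to 13.5 in air and 25.3 to 30.2 in Room-air. The preparations held more than vessels. Summed endothelial markers (20 genes such as Pecam1, Cdh5 and Cldn5) took 0.304 to 0.608% of counts in Nic, 0.235 to 0.361% in Nic-free, 0.286 to 0.372% in smoke, 0.161 to 0.293% in air and 0.294 to 0.443% in Room-air. Summed neuron markers (15 genes) took 1.33 to 1.61% in Nic, 1.54 to 1.71% in Nic-free, 1.27 to 1.58% in smoke, 1.57 to 1.71% in air and 1.24 to 1.47% in Room-air. Summed choroid plexus and ependyma markers (12 genes) took 0.302 to 0.929% in Nic, 0.134 to 2.27% in Nic-free, 0.24 to 3.56% in smoke, 0.459 to 2.86% in air and 2.27 to 3.02% in Room-air. No gene of these 3 lists was at 0 in any library. In such bulk samples, fewer cells of a type and less RNA per cell cannot be told apart.

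Levels are counts per 1e6 total counts (CPM). Per kilobase of exon (CPM per kb), the scale on which genes can be compared, the 6 transcripts lay in 3 tiers. Bsg stood highest with a mean of 944.87 CPM per kb over the 19 libraries, and Slc2a1 followed with 151.49. Slc2a3 and Slc16a1 were at 19.47 and 17.25 CPM per kb. Slc16a3 and Slc16a7 were lowest at 0.82 and 0.54 CPM per kb. Bsg and the endothelial glucose carrier thus exceeded the other 4 transcripts in every group mean. Across libraries the highest CPM exceeded the lowest 4.82-fold for Slc2a1 and 3.77-fold for Slc16a1, against 2.25-fold for Slc16a3, 1.89-fold for Bsg, 1.83-fold for Slc16a7 and 1.59-fold for Slc2a3.

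**Figure D1:**
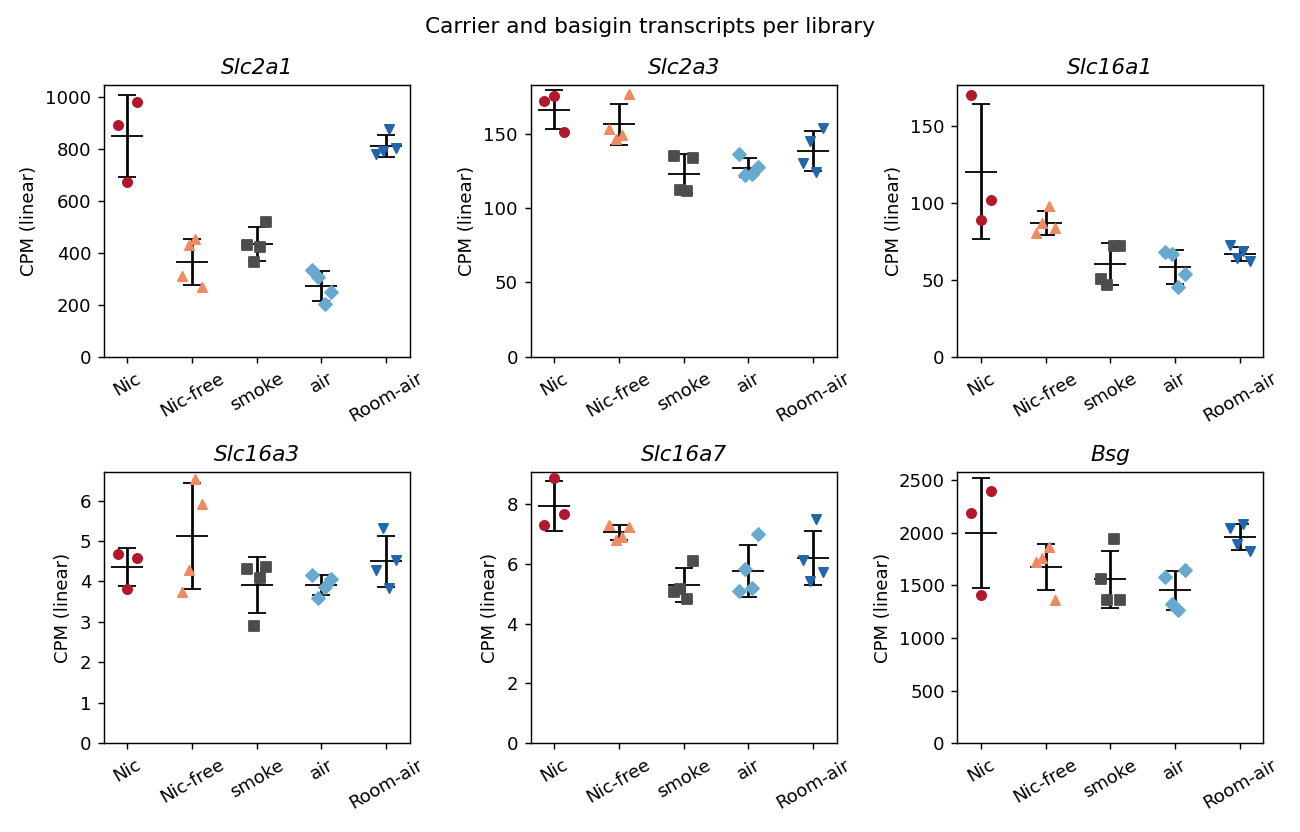
Levels of the 6 transcripts in CPM (y axes, a separate linear scale for each gene) in Nic, Nic-free, smoke, air and Room-air from left to right; points are libraries and bars show the group mean and SD. Slc2a1 lies between 674 and 981 CPM in Nic and between 780.05 and 876 CPM in Room-air, with the other groups below 520, while Slc2a3 stays between 111 and 177 CPM throughout.

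Slc2a1, the barrier's glucose carrier, was the member that passed the test most often: it was lower in Nic-free than in Room-air, higher in Nic than in Nic-free, higher in smoke than in air, and lower in air than in Room-air. The gene lies on chromosome 4 at 119108711 to 119137983, plus strand (GRCm38, GENCODE M21). A minus-strand gene, Gm12868, shares 105 exonic bases with it but had at most 4 counts in any library. The Slc2a1 promoter is shown as the window of the member that moved most. It spans the 250 bases before the RefSeq start, chr4:119108495-119108744, plus strand (GRCm38.p6). Capitals mark ACGTG, 1 form of the core of the element that hypoxia-inducible factors bind. The GCGTG form was not searched.
Slc2a1: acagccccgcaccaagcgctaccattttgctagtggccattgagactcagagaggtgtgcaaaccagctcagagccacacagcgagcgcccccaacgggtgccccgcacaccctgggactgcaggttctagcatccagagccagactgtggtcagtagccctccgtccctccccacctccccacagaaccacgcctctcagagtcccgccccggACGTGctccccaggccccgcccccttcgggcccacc
The window holds 1 match, 36 bases before the RefSeq start, and 66.4% G or C. It ends beyond the GENCODE start of the gene at 119108711, so its last bases lie inside the gene by that annotation. Searched on both strands (ACGTG or CACGT), the motif is in 5444 of 32851 RefSeq promoter windows of that length, or 16.6%. The median G or C content of those windows is 52.4%. A match describes letters and is not evidence of binding.

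Slc2a1 had 893, 674 and 981 CPM in Nic, 309.9, 429, 452 and 268 CPM in Nic-free, 431, 363, 424 and 519.9 CPM in smoke, 335, 305, 203 and 250 CPM in air, and 780.05, 791, 876 and 805 CPM in Room-air. Every Nic and Room-air library exceeded every library of the other 3 groups. In order of group means, Nic (849 ± 158 CPM, SD, n = 3) and Room-air (813 ± 43.2, n = 4) overlapped. Smoke (434 ± 64.6, n = 4), Nic-free (365 ± 89.9, n = 4) and air (273 ± 58.4, n = 4) followed, each overlapping its neighbour.

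Against Room-air, Slc2a1 fell in Nic-free by 1.11 on the log2 scale (SE 0.16, adjusted p = 0.000768, edgeR), with no overlap between the groups. It was the only 1 of 6 members called there, where 21.8% of all 17235 genes tested were called. The call held with each of the 8 libraries left out, the log2 fold change running from -1.22 to -0.98. Endothelial markers were also lower, 6 of 20 passing with a median log2 fold change of -0.40. Neuron markers were higher, 9 of 15 passing with a median of 0.45. With the endothelial markers as a covariate the log2 fold change was -0.88 (adjusted p = 0.000738). With the neuron markers it was -0.76 (adjusted p = 0.347), and with the choroid plexus markers it was -0.99 (adjusted p = 0.0608).

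Between the vapours, Slc2a1 was 1.15 log2 units higher in Nic than in Nic-free (SE 0.17, adjusted p = 0.000617, edgeR), again without overlap. It was 1 of 6 members called, against 24.8% of all genes. Leaving out each of the 7 libraries gave 1.02 to 1.28, past the threshold each time. Of the endothelial markers, 11 of 20 were higher in Nic (median 0.77), and 8 of 15 neuron markers were lower (median -0.61). With the endothelial markers as a covariate the difference was 0.73 (adjusted p = 0.00439), with the choroid plexus markers 1.14 (adjusted p = 0.000863) and with the neuron markers 0.78 (adjusted p = 0.347). Nic against Room-air gave 0.04 for Slc2a1 (SE 0.17, adjusted p = 0.915).

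In smoke, Slc2a1 was 0.69 higher than in air on the log2 scale (SE 0.15, adjusted p = 0.0457, edgeR), and the lowest smoke library, at 363 CPM, lay above the highest air library, at 335 CPM. It was 1 of 6 members called, against 1.6% of all 15232 genes tested. The call stands close to the threshold: it was kept without air replicate 1 (adjusted p = 0.0448) and lost without any 1 of the other 7 libraries (adjusted p 0.0607 to 0.131), with log2 fold changes of 0.58 to 0.78. Endothelial markers had a median log2 fold change of 0.55, and 2 of 20 passed. With them as a covariate the difference in Slc2a1 was 0.20 (adjusted p = 0.787).

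Of the 5 differences between groups, the largest for Slc2a1 was between the sets of unexposed mice. It was lower in air than in Room-air by 1.54 on the log2 scale (SE 0.17, adjusted p = 1.84e-05, edgeR), 1 of 6 members called against 22.7% of all 16557 genes. Over 15 alternatives it stayed between -1.62 and -1.07 and past the threshold. Of the endothelial markers, 12 of 20 were lower in air, with a median of -0.72. Beside this gap, the direction of the Slc2a1 estimate in Nic-free and in smoke turned on which unexposed set it was compared with. In a fit of all 19 libraries, Nic against air gave 1.56 (SE 0.18, adjusted p = 2.96e-05) and Nic against Room-air gave 0.02 (SE 0.18, adjusted p = 0.96). Nic-free gave 0.42 against air (SE 0.17, adjusted p = 0.157) and -1.12 against Room-air (SE 0.17, adjusted p = 0.000278). Smoke gave 0.68 against air (SE 0.17, adjusted p = 0.0334) and -0.86 against Room-air (SE 0.17, adjusted p = 0.00678). Against both sets together, Nic gave 0.79 (SE 0.15, adjusted p = 0.00257), Nic-free -0.35 (adjusted p = 0.152) and smoke -0.09 (adjusted p = 0.84). Set of mice and any batch of preparation or sequencing cannot be told apart, since no label gives a batch.

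**Figure D2:**
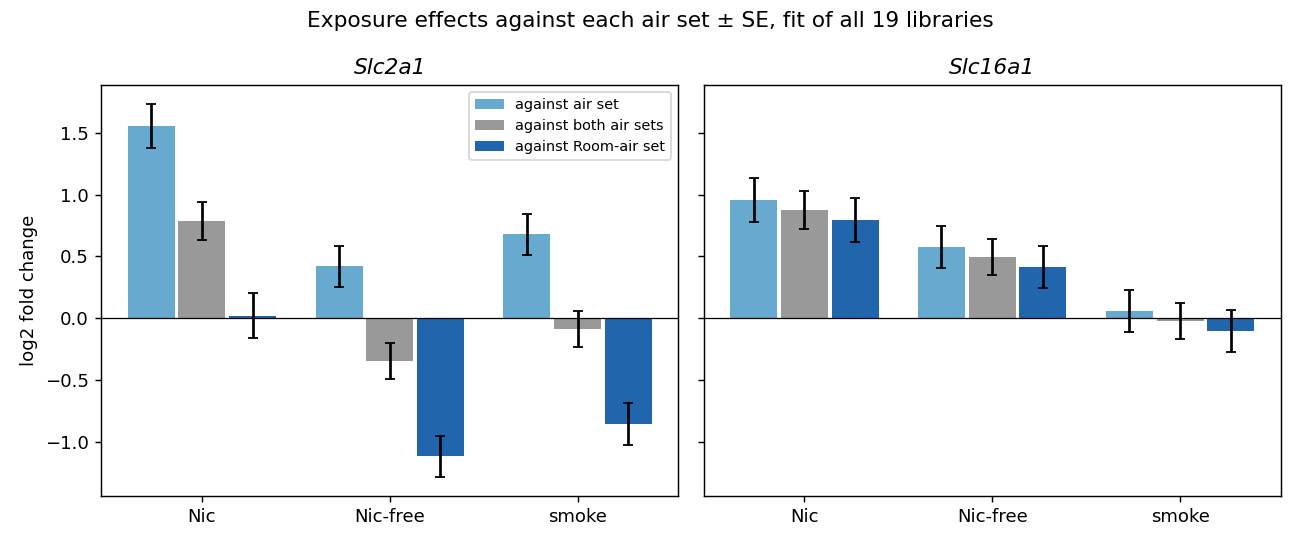
Log2 fold changes of Slc2a1 and Slc16a1 (y axis, with standard errors) in Nic, Nic-free and smoke, each set against air, both air sets and Room-air in a fit of all 19 libraries. Slc2a1 in Nic-free lies at 0.42 against air and -1.12 against Room-air, while Slc16a1 in Nic lies at 0.96 against air and 0.80 against Room-air.

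Slc2a1 was then set beside the endothelial content of its own library, as its log2 CPM minus the mean log2(CPM + 0.5) of the 20 endothelial markers. This value was 1.69 ± 0.14 in Nic-free and 2.41 ± 0.26 in Room-air (SD, n = 4 each), a difference of -0.72 (exact two-sided permutation p = 0.0286, the smallest that 4 against 4 allows). It was 2.14 ± 0.27 in Nic (n = 3), 0.46 above Nic-free (exact permutation p = 0.0571, the smallest that 3 against 4 allows) and -0.27 from Room-air (exact permutation p = 0.229). In smoke it was 1.70 ± 0.09 and in air 1.59 ± 0.08 (n = 4 each), a difference of 0.11 (exact permutation p = 0.171). Air differed from Room-air by -0.82 (exact permutation p = 0.0286). Over the 30 such tests of 6 members in 5 comparisons, 7 had an unadjusted p under 0.05 and 0 passed after adjustment, the lowest adjusted p being 0.122. The adjusted threshold was all but out of reach: tests with Nic could not pass, their smallest possible p being 0.0571. The others could pass only if all of them gave 0.0286. The lack of a pass therefore says little about these differences.

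**Figure D3:**
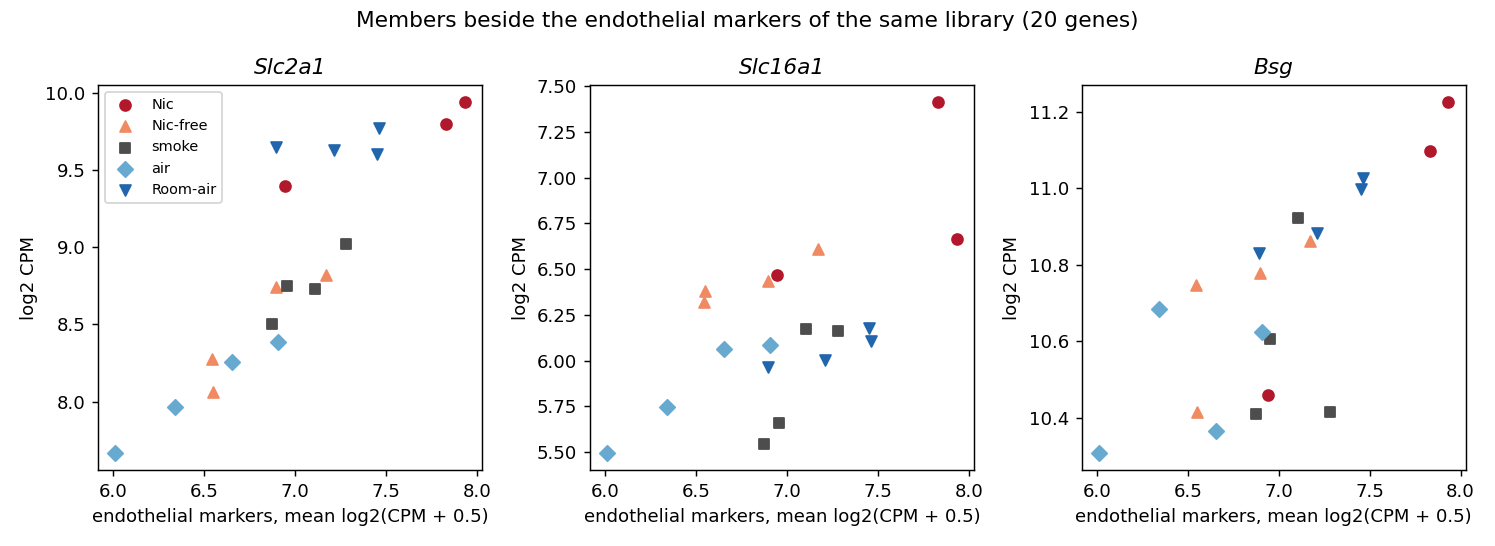
Log2 CPM of Slc2a1, Slc16a1 and Bsg (y axes) against the mean log2(CPM + 0.5) of 20 endothelial markers (x axis). Each library is 1 point, coloured by group in the order Nic, Nic-free, smoke, air, Room-air. Slc2a1 climbs with the markers across the groups but not steadily within Room-air, whose replicate 4 lies at 6.89 and 9.65. At a like marker level, Nic-free replicate 2 lies at 6.90 and 8.745. For Slc2a1, air replicate 3 is lowest on both axes at 6.01 and 7.67.

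Slc2a3, the neuronal glucose carrier (chromosome 6, 122727809 to 122801640, minus strand, GRCm38), varied least. It had 172, 176 and 151 CPM in Nic, 153, 147, 149 and 177 CPM in Nic-free, 135, 112, 111 and 134 CPM in smoke, 136, 122, 123 and 128 CPM in air, and 130.2, 145, 124 and 154 CPM in Room-air. All groups overlapped their neighbours, in the order Nic, Nic-free, Room-air, air, smoke. Every vapour library (lowest 146.79 CPM) nevertheless exceeded every air and smoke library (highest 136.44 CPM), while Room-air overlapped both sides. No comparison passed as fitted: the estimates were 0.22 in Nic-free and 0.24 in Nic against Room-air, 0.02 in Nic against Nic-free, -0.03 in smoke against air and -0.08 in air against Room-air (SE 0.09 to 0.105, adjusted p 0.111 to 0.92, edgeR). With air as the control Nic gave 0.30 (adjusted p = 0.0244), and with both unexposed sets Nic gave 0.26 (adjusted p = 0.0399) and Nic-free 0.26 (adjusted p = 0.0477). With the endothelial markers as a covariate, Nic gave 0.33 against Room-air (adjusted p = 0.0285). The Slc2a1 to Slc2a3 ratio of CPM per kb therefore followed Slc2a1. It was 10.68 ± 2.73 in Nic, 4.91 ± 1.51 in Nic-free, 7.29 ± 0.75 in smoke, 4.43 ± 0.84 in air and 12.26 ± 1.69 in Room-air (SD).

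Slc16a1, the proton-coupled carrier of lactate, pyruvate and ketone bodies in the vessel wall, lies on chromosome 3 at 104638668 to 104658462, plus strand (GRCm38). It was the only member called in Nic against Room-air. Its promoter window, chr3:104638414-104638663, plus strand (RefSeq, GRCm38.p6), is shown as that of the other member that passed a test, with the same motif in capitals.
Slc16a1: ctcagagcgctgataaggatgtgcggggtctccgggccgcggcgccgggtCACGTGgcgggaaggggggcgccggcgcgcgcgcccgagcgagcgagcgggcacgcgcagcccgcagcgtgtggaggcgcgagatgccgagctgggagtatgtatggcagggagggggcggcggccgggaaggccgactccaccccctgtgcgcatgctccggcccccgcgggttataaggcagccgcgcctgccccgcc
Here ACGTG and its reverse complement CACGT overlap in CACGTG, 199 and 200 bases before the start, a word also known as an E-box, and 76.4% of the window is G or C. Compared with the Slc2a1 window, the match lies farther from the RefSeq start. The table of promoters held 3 of the 6 members (Slc2a1, Slc16a1 and Slc16a3).

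Slc16a1 had 170.4, 88.6 and 102 CPM in Nic, 80.04, 86.6, 97.9 and 83.3 CPM in Nic-free, 50.6, 46.7, 72.0 and 71.7 CPM in smoke, 67.9, 66.9, 45.1 and 53.8 CPM in air, and 72.4, 64.0, 68.9 and 62.5 CPM in Room-air. Every vapour library, with or without nicotine, exceeded every library of smoke, air and Room-air, and Nic replicate 1 stood well above the rest of its group. Means were 120.2 ± 43.9 CPM in Nic, 86.9 ± 7.76 in Nic-free, 60.3 ± 13.5 in smoke, 58.4 ± 10.95 in air and 66.9 ± 4.53 in Room-air (SD).

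In Nic, Slc16a1 rose by 0.82 on the log2 scale against Room-air (SE 0.17, adjusted p = 0.0249, edgeR), 1 of 6 members called against 3.89% of all genes. The size rests in part on 1 library: without Nic replicate 1 it was 0.50 (adjusted p = 0.178). The call was also lost without Room-air replicate 1, 2 or 4 (adjusted p 0.0584, 0.0745 and 0.0506, log2 fold changes of 0.85, 0.79 and 0.79). With the choroid plexus markers as a covariate it was 0.61 (adjusted p = 0.39). Those markers took less of the counts in every Nic library than in every Room-air library. Against air, Nic gave 0.96 (SE 0.18, adjusted p = 0.000826) in the fit of all 19 libraries.

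In Nic-free, Slc16a1 gave 0.43 against Room-air (SE 0.16, adjusted p = 0.0638, edgeR), short of the threshold although the groups did not overlap, and 0.58 against air (SE 0.17, adjusted p = 0.0602). Against both unexposed sets together it was 0.50 (SE 0.14, adjusted p = 0.0392). The comparison with Room-air passed with DESeq2 (0.42, adjusted p = 0.0417), with the 2 groups fitted alone (0.42, adjusted p = 0.00368) and with the endothelial markers as a covariate (0.62, adjusted p = 0.0108). It gave 0.70 with the neuron markers (adjusted p = 0.384) and 0.21 with the choroid plexus markers (adjusted p = 0.639). Of the oligodendrocyte markers, a cell type that makes MCT1, 6 of 11 were higher in Nic-free than in Room-air (median 0.39). As many, 6 of 11, were higher in air than in Room-air (median 0.495). In Nic against Room-air 0 passed (median -0.175), and 7 of 11 were lower in Nic than in Nic-free (median -0.47). Their part in the result was not tested. Nic exceeded Nic-free by 0.39 (SE 0.17, adjusted p = 0.1). The other comparisons had overlapping groups, 0.07 in smoke against air (SE 0.16, adjusted p = 0.856) and -0.16 in air against Room-air (SE 0.17, adjusted p = 0.512). In these fits, not scaled to endothelial markers, Slc16a1 was thus estimated above either unexposed set in both vapour groups.

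Relative to the endothelial markers, Slc16a1 was at -0.35 ± 0.19 in Nic-free and -1.19 ± 0.19 in Room-air, a difference of 0.84 (exact permutation p = 0.0286, n = 4 each). Nic, at -0.72 ± 0.47, differed from Room-air by 0.47 (exact permutation p = 0.171). Smoke was at -1.17 ± 0.18 and air at -0.63 ± 0.13, a difference of -0.54 (exact permutation p = 0.0286). Air differed from Room-air by 0.56 (exact permutation p = 0.0286), about as much as smoke from air, so that on this scale the mean of Nic lay below that of air. The smoke and air libraries overlapped in CPM but not on this scale. After adjustment over the 30 tests none of these passed, but at these group sizes the adjusted threshold was all but out of reach.

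Slc16a3, the low-affinity carrier of lactate-exporting cells (chromosome 11, 120948480 to 120960868, plus strand), was sparse, with 23 to 159 counts per library. It had 4.68, 3.82 and 4.58 CPM in Nic, 3.75, 4.28, 6.53 and 5.92 CPM in Nic-free, 4.30, 2.90, 4.10 and 4.36 CPM in smoke, 4.16, 3.59, 3.85 and 4.06 CPM in air, and 4.27, 5.33, 3.84 and 4.54 CPM in Room-air. All pairs of groups compared overlapped, and no comparison passed (log2 fold changes of -0.31 to 0.24, SE 0.17 to 0.195, adjusted p 0.27 to 0.959, edgeR). At the lowest count, counting error alone is 20.9%, so small differences were not detectable at this depth.

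Slc16a7, the high-affinity carrier of neurons (chromosome 10, 125219270 to 125389465, minus strand), had 41 to 232 counts per library. Its levels were 7.29, 8.87 and 7.65 CPM in Nic, 7.30, 6.79, 6.90 and 7.24 CPM in Nic-free, 5.06, 5.16, 4.84 and 6.11 CPM in smoke, 5.09, 5.84, 5.19 and 6.98 CPM in air, and 6.13, 5.43, 7.48 and 5.74 CPM in Room-air. Nic and Nic-free gave 0.34 and 0.24 against Room-air (SE 0.13 each, adjusted p 0.136 and 0.194, edgeR), and the groups overlapped. The remaining comparisons lay between -0.10 and 0.10 (adjusted p 0.625 to 0.786). Slc16a1 exceeded it per kilobase in every group, by 41.57 ± 18.63 in Nic, 33.04 ± 3.83 in Nic-free, 30.55 ± 6.88 in smoke, 27.56 ± 6.90 in air and 29.21 ± 3.27 in Room-air (ratio, SD).

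Bsg, the partner glycoprotein (chromosome 10, 79704491 to 79711969, plus strand), was measured with 10793 to 67866 counts per library. It had 2189.8, 1408 and 2393 CPM in Nic, 1718, 1756, 1860.2 and 1364 CPM in Nic-free, 1559, 1359.5, 1939.9 and 1365 CPM in smoke, 1579, 1320.1, 1268 and 1647 CPM in air, and 2044, 1889, 2086 and 1822 CPM in Room-air. Nic spread widest, its replicate 2 being below every Room-air library and also the Nic library with the lowest Slc2a1 and the smallest share of endothelial markers. No comparison passed in edgeR: -0.18 in Nic-free and 0.00 in Nic against Room-air (SE 0.15 and 0.16, adjusted p 0.419 and 0.991), 0.18 in Nic against Nic-free (SE 0.16, adjusted p = 0.435) and 0.12 in smoke against air (SE 0.15, adjusted p = 0.724, edgeR). Air gave -0.39 against Room-air (SE 0.15, adjusted p = 0.0692), with no overlap between the sets, and passed with DESeq2 (-0.39, adjusted p = 0.0398). Over 15 alternatives it ran from -0.464 to -0.055. Relative to the endothelial markers the sign was opposite, 0.34 in air against Room-air (exact permutation p = 0.171). Slc2a1 was 0.22 ± 0.02 of Bsg per kilobase in Nic, 0.11 ± 0.02 in Nic-free, 0.15 ± 0.04 in smoke, 0.10 ± 0.02 in air and 0.22 ± 0.01 in Room-air.

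**Figure D4:**
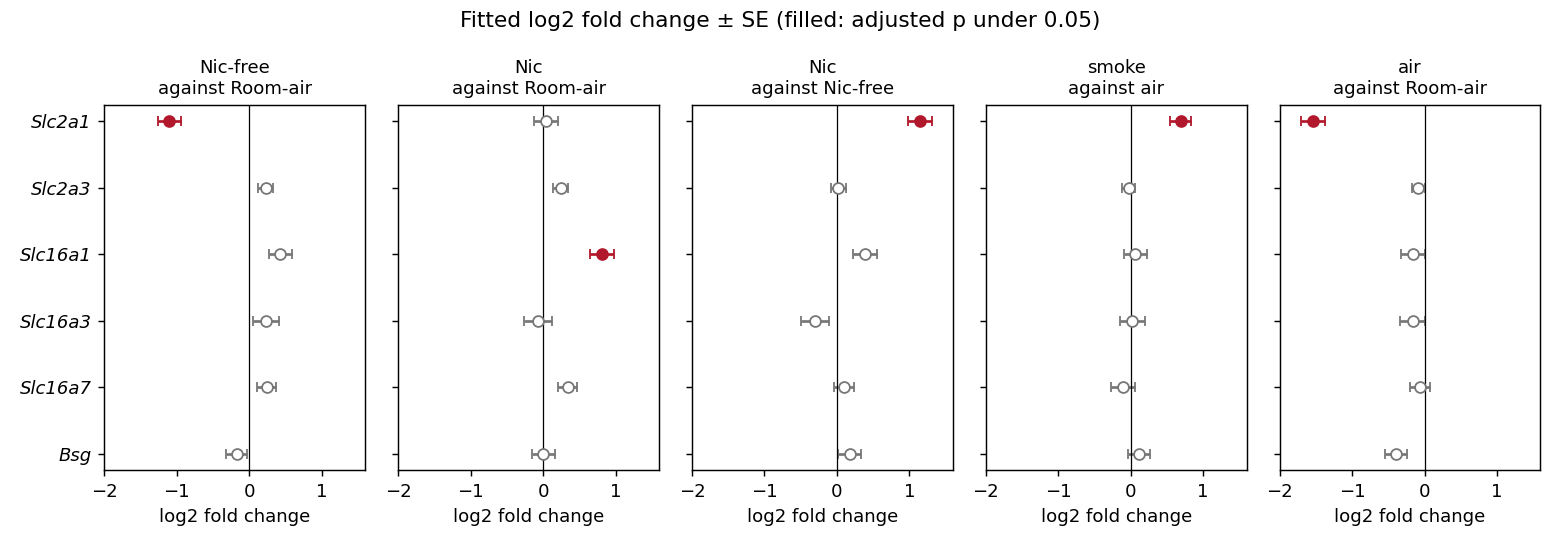
Log2 fold changes with standard errors (edgeR) of the 6 members in each comparison, filled points marking an adjusted p under 0.05. Slc2a1 holds 4 of the 5 filled points between groups, from -1.54 in air against Room-air to 1.15 in Nic against Nic-free, and Slc16a1 holds the other, at 0.82 in Nic against Room-air.

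The effect of smoke was compared with that of each vapour by an interaction, each effect taken against its own unexposed set. For Slc2a1 the smoke effect exceeded the Nic-free effect by 1.80 log2 units (SE 0.24, adjusted p = 0.000109, edgeR), 1 of 6 members called against 21.5% of all genes. It stayed past the threshold in all 23 alternatives, from 1.18 to 1.91, but none of these exchanged the unexposed sets. The unexposed sets enter this value, and Slc2a1 differed between them by 1.54. Set against the Nic effect, the smoke effect differed by 0.66 for Slc2a1 (SE 0.25, adjusted p = 0.103) and by -0.74 for Slc16a1 (SE 0.25, adjusted p = 0.0769). There 0 of 6 members passed in edgeR, against 5.59% of all genes, while 3 had an unadjusted p under 0.05 and DESeq2 called 1.

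The members did not share a direction, so their median describes the set only loosely. It was, as a log2 fold change, 0.23 in Nic-free against Room-air, 0.14 in Nic against Room-air, 0.14 in Nic against Nic-free, 0.04 in smoke against air and -0.16 in air against Room-air. Over all genes tested the medians were 0.00, 0.03, 0.02, 0.02 and 0.00 in the same order.

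The regulators of glucose carriers, 15 genes, included genes with differences about as large as those of Slc2a1. Txnip, whose protein promotes the uptake of GLUT1 from the cell surface, fell by 1.12 in Nic-free against Room-air (SE 0.12, adjusted p = 0.000128, edgeR) and fell by 1.47 in air against Room-air (SE 0.16, adjusted p = 1.84e-05). It was 0.96 higher in Nic than in Nic-free (SE 0.12, adjusted p = 0.000287). Its smoke effect exceeded its Nic-free effect by 1.84 (SE 0.23, adjusted p = 7.98e-05), each taken against its own unexposed set. Tbc1d4, a Rab GTPase activator that holds the insulin-responsive carrier inside muscle and fat cells, fell by 1.02 in Nic-free and by 1.04 in air, each against Room-air, and was 1.20 higher in Nic than in Nic-free (adjusted p 0.00533, 0.00152 and 0.00243). In all, 3 of 15 fell in Nic-free against Room-air (median -0.20), where 21.8% of all genes were called. In Nic against Nic-free 6 rose and 1 fell (median 0.37), with 24.8% of all genes called, and in air against Room-air 4 fell (median -0.18), with 22.7%. The first and last of these shares lie near those of all genes. Those that differed between the vapours also included Tbc1d1, Arnt, Mlxip and Arrdc4, higher in Nic, and Egln1, lower in Nic. For Nic against Room-air and smoke against air edgeR called 0 of 15, with 3 and 4 at an unadjusted p under 0.05, and DESeq2 called 0 and 2. Endothelial markers moved with these counts in the comparisons that had calls, as given for Slc2a1. With the endothelial markers as a covariate 5 of 15 were called in Nic-free against Room-air, 7 in Nic against Nic-free and 2 in air against Room-air. With the neuron markers the counts were 0, 0 and 1, and with the choroid plexus markers 1, 6 and 3. The share of all genes called was not computed for the covariate fits. Whether these changes are particular to the list was not tested.

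The enzymes of glycolysis and lactate dehydrogenase, 19 genes that use what the carriers bring in, were mostly lower in Nic. Against Nic-free 12 of 19 fell and 1 rose (median -0.46), with 24.8% of all genes called. That count of 13 was 0 with the neuron markers as a covariate and 13 with the endothelial or the choroid plexus markers. In that fit with neuron markers, 0 genes of the regulator, ketone body and other monocarboxylate carrier lists were called either. The share of all genes called in it was not computed, so whether the loss is particular to these enzymes was not tested. Aldoc, the brain aldolase, fell by 1.05 (SE 0.13, adjusted p = 0.000287, edgeR), Ldhb, the heart-type lactate dehydrogenase subunit, fell by 0.78 (adjusted p = 0.000797), and Pfkfb3, which makes the activator of phosphofructokinase, was 0.52 higher (adjusted p = 0.00246). Against Room-air 7 of 19 fell and 0 rose (median -0.45), with 3.89% of all genes called, led by Pgk1 (-0.74, SE 0.11, adjusted p = 0.0181) and Ldhb (-0.78, SE 0.12, adjusted p = 0.0197). The count against Room-air was 2 without Room-air replicate 1, 3 without Nic replicate 2, and 0 without Room-air replicate 2 or Nic replicate 1. It was also 0 with the choroid plexus markers as a covariate. Neuron markers, 8 of 15 lower in Nic than in Nic-free, had a median log2 fold change of 0.015 in Nic against Room-air. With them as a covariate the count against Room-air was 7.

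In Nic-free against Room-air 2 of 19 glycolytic genes rose, Aldoc by 0.57 (adjusted p = 0.00552) and Hk2 by 0.50 (adjusted p = 0.016), and 2 fell, Pfkfb3 and Pfkp (edgeR), a share near the 21.8% of all genes called there. The sum of 4 was 2 without Nic-free replicate 2, 0 with the neuron or the choroid plexus markers as a covariate and 5 with the endothelial markers. Smoke against air called 0 of 19 in edgeR and in DESeq2, with 2 at an unadjusted p under 0.05. Air against Room-air called Tpi1 alone, 0.39 higher in air (adjusted p = 0.0398), a call lost without Room-air replicate 3 or 4 or air replicate 2 or 3, and with any of the 3 marker lists as a covariate, while 3 were called without air replicate 1 and 2 without Room-air replicate 1.

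Of the other monocarboxylate carriers and ancillary glycoproteins, 14 of 17 were tested. In Nic-free against Room-air 5 fell (median -0.35), with 21.8% of all genes called. Among them Slc16a12, a creatine carrier, fell by 0.94 (adjusted p = 0.0074), Slc16a9, a carnitine carrier, fell by 1.02 (adjusted p = 0.0141), and Slc16a6 and Slc16a14 fell by 0.44 and 0.52 (edgeR). In air against Room-air, where 22.7% of all genes were called, 5 fell (median -0.46), with Slc16a9 at -1.33 (adjusted p = 0.0224) and Slc16a12 at -1.22 (adjusted p = 0.023). These counts were unsteady. The first was 2 or 3 without Room-air replicate 1 or 3 or Nic-free replicate 2, 3 or 4, 0 with the choroid plexus or the neuron markers as a covariate and 2 with the endothelial markers. In Nic against Nic-free Slc16a4 alone was called, 0.48 higher in Nic (adjusted p = 0.0386), and in smoke against air Slc16a11 alone, 0.45 higher in smoke (adjusted p = 0.0495). Nic against Room-air called 0 of 14 in edgeR, with 4 at an unadjusted p under 0.05 and 1 called by DESeq2. The Slc16a4 call was lost without Nic-free replicate 2, 3 or 4 or Nic replicate 1, and 4 genes were called without Nic-free replicate 1. The Slc16a11 call was lost without any library but air replicate 1. The count in air against Room-air was 3 without Room-air replicate 1 and 0 without Room-air replicate 3, air replicate 2 or air replicate 3. With covariates it was 0 for the endothelial or the neuron markers and 2 for the choroid plexus markers. Choroid plexus markers had a median log2 fold change of -1.58 in Nic-free and -1.36 in air, each against Room-air.

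The other glucose carriers, 10 of 15 tested in the vapour fit and 9 in the others, had 0 calls in edgeR in all 5 comparisons between groups. At an unadjusted p under 0.05 there were 1 in Nic-free against Room-air, 2 in Nic against Room-air, 1 in Nic against Nic-free, 3 in smoke against air and 2 in air against Room-air, and DESeq2 called 1 in Nic-free against Room-air and 0 in the other 4. The ketone body list held 7 genes, among them Acss1, whose enzyme activates acetate and not ketone bodies. In Nic against Room-air, Acss1 and Bdh1 fell by 0.53 and 0.40 (adjusted p 0.0197 and 0.0387, edgeR), with 3.89% of all genes called. That count of 2 was 0 with the choroid plexus markers as a covariate, 1 with the neuron and 3 with the endothelial markers. It was 0 without Room-air replicate 2 or Nic replicate 1, 1 without Room-air replicate 1 or 3 or Nic replicate 2, and 4 without Nic replicate 3. In Nic against Nic-free Bdh1, Oxct1 and Acss1 fell by 0.34 to 0.63 (adjusted p 0.00229 to 0.00948). The count of calls in the list there was 4, with 24.8% of all genes called. It was 2 without Nic replicate 1 and 0 with the neuron markers as a covariate. Smoke against air called 0 of 7 in edgeR, with 1 at an unadjusted p under 0.05 and 1 called by DESeq2.

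Transcripts whose log2 CPM followed each member most closely over the 19 libraries were ranked by Pearson r among 12011 other genes. For Slc2a1 they were Rin3 (0.97), Atp10a (0.97) and Notch4 (0.97), and r of the deviations from group means was 0.84 to 0.88. For Slc2a3 they were Wscd2 (0.94), Atp2b4 (0.93) and Sez6l (0.93), with 0.77 to 0.89 within groups. For Slc16a1 they were Rbms1 (0.91), Ebf1 (0.90) and Klf6 (0.88), with 0.65 to 0.87 within groups. Bsg was closest to Rab11fip1 (0.91), Tram2 (0.90) and Vasp (0.89), with 0.87 to 0.90 within groups. Slc16a3 and Slc16a7 had weaker neighbours, Adck2 at 0.78 and Man1a2 at 0.82. Among the members themselves, Slc2a1 and Bsg were closest (0.68, 0.53 within groups), Slc2a1 and Slc16a1 gave 0.44 (0.57 within groups), and Slc2a3 and Bsg gave 0.04 (-0.57 within groups). All these values share libraries, depth and cell content, so they describe these 19 libraries and carry no test.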

How the data were processed

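The authors deposited 1 file of raw counts for each library, with a row for each Ensembl gene. STAR, HTSeq and the mouse build mm10 are named in the submitters' processing notes. Versions, and the strand setting of the counting, are not given in the sources used here. Reads came from single-end, strand-specific libraries, per the labels' protocols. The 5 summary lines of each file were left out, of which the line for reads in no feature held 28.66 to 45.16% of the reads listed. That share was 33.01 to 38.4% in Nic, 38.86 to 45.16% in Nic-free and 28.91 to 33.25% in smoke. It was 33.55 to 37.51% in air and 28.66 to 33.4% in Room-air. Among the comparisons between groups, only Nic and Room-air overlapped in it. Its part in the results was not tested. Gene names and positions are from GENCODE M21 (GRCm38). Symbols were found for 37693 genes.

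CPM are counts per 1e6 total counts. Tests used edgeR 4.0.16 in R 4.3.3: TMM, filterByExpr, robust glmQLFit and a two-sided glmQLFTest. P-values were adjusted over all genes tested (Benjamini-Hochberg) and called under 0.05. Nic, Nic-free and Room-air shared a fit of 11 libraries, smoke and air a fit of 8, and air against Room-air and both interactions a fit of 19. DESeq2 1.42.0 was an alternative. The other alternatives were other size factors, no low-count filter, other sets of libraries, a replicate block, marker covariates, the other unexposed set, and each library left out. Shares of all genes called were computed for the main fits only. The tests were first tested on simulated data. Levels relative to endothelial markers used exact permutation tests. Named list genes are the called genes of smallest adjusted p, up to 6 per list, and some of these are not reported here. The 6 members, the gene lists and the tests were chosen with earlier results of these data known. No label gives a batch, litter or pairing.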

Additional observations from a re-analysis of the deposited data

Results flagged for a closer look

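The Slc2a1 response to smoke against air differed from that to nicotine-free vapour against Room-air by 1.80 log2 units (SE 0.24, adjusted p = 0.000109, edgeR interaction test), and a difference between the responses of separate groups is what singled it out. Slc2a1 was higher in 4 of 4 smoke libraries than in any air library and lower in 4 of 4 Nic-free libraries than in any Room-air library. The levels of the exposed groups themselves overlapped, 363 to 519.9 CPM in smoke and 268 to 452 CPM in Nic-free, whereas air lay at 203 to 335 CPM and Room-air at 780.05 to 876 CPM. No member had a single library standing far from its group of 4 in the 24 groups checked.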

How the results depend on the processing

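Over 42 log2 fold changes of members, 786 alternative values were computed: 688 kept direction and side of the threshold, 60 changed sign, 20 lost a call and 18 gained one. Apart from exchanges of the unexposed set, no estimate whose sign changed had passed the test. The cause was not tested.

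The number of members called was 1 of 6 in each comparison except the smoke effect minus the Nic effect. There it was 0, against 5.59% of all genes, each effect being taken against its own unexposed set. Smoke was not tested against Nic directly. In Nic-free against Room-air it was 2 with DESeq2, with the 2 groups fitted alone, with endothelial covariate and with both unexposed sets, and 0 with neuron or choroid covariate or with air as control. In Nic against Room-air it was 2 with endothelial and 0 with choroid covariate, and 3 with air or both sets as control. In Nic against Nic-free it was 0 with neuron covariate. In smoke against air it was 0 with DESeq2 size factors, the replicate block, endothelial or neuron covariate and both sets. It was 2 with DESeq2 in air against Room-air, 1 with DESeq2, endothelial or neuron covariate for the smoke effect minus the Nic effect, and 2 with endothelial covariate for the smoke effect minus the Nic-free effect. With 1 library left out, the counts ran from 1 to 1 in Nic-free against Room-air and 0 to 1 in Nic against Room-air. They ran from 1 to 2 in Nic against Nic-free and 0 to 1 in smoke against air. For the smoke effect minus the Nic effect they ran from 0 to 2.

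Sign changes with the endothelial covariate were Bsg at 0.072 in Nic-free against Room-air, Slc2a1 at -0.151 and Bsg at -0.201 in Nic against Room-air, Bsg at -0.273 in Nic against Nic-free, Slc16a1 at -0.427 and Slc16a3 at -0.018 in smoke against air, Slc16a1 at 0.257 in air against Room-air, and Bsg at -0.153 for smoke minus Nic-free. With the neuron covariate Bsg was at 0.133 in Nic-free and -0.027 in Nic against Room-air, -0.160 in Nic against Nic-free, -0.131 in smoke against air, at -0.089 and -0.219 in the interactions with Nic and Nic-free. Slc2a3 was then at 0.029, Slc16a1 at -0.197 and Slc16a3 at -0.070 in smoke against air, and Slc16a1 at 0.079 in air against Room-air. With the choroid covariate Slc16a3 was at -0.143 in Nic-free against Room-air and Bsg at -0.061 for smoke minus Nic.

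With the other unexposed set as control, Nic-free gave 0.419 for Slc2a1 and 0.205 for Bsg, Nic gave 0.071 for Slc16a3, and smoke gave -0.858 for Slc2a1, -0.104 for Slc16a1, -0.146 for Slc16a3 and -0.288 for Bsg. With both sets, Nic-free gave 0.008 for Bsg, and smoke gave -0.089 for Slc2a1, -0.023 for Slc16a1, -0.065 for Slc16a3 and -0.091 for Bsg. Bsg in Nic against Room-air was at -0.008 with DESeq2 or its size factors, -0.014 with all 19 libraries and -0.030 with the 2 groups alone. Deviations of 36 same-numbered pairs of libraries correlated at -0.552 to 0.589, 10 of them over 0.1. Differently numbered pairs were not computed, so these values cannot decide whether replicate numbers pair libraries. With the replicate block Slc2a1 was at -0.037 and Bsg at -0.082 in Nic against Room-air, and Slc2a1 in smoke against air at 0.703 (adjusted p = 0.117).

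With 1 library left out, signs changed within these ranges. In Nic against Room-air they were -0.084 to 0.178 for Slc2a1, -0.141 to 0.021 for Slc16a3 and -0.154 to 0.199 for Bsg. In Nic against Nic-free Slc2a3 ran from -0.030 to 0.077. In smoke against air they were -0.075 to 0.020 for Slc2a3, -0.034 to 0.138 for Slc16a1, -0.038 to 0.093 for Slc16a3, -0.186 to 0.003 for Slc16a7 and -0.000 to 0.185 for Bsg. Slc16a7 ran from -0.173 to 0.035 in air against Room-air, and Bsg from -0.085 to 0.295 for smoke minus Nic. Relative to endothelial markers in Nic against Room-air, Slc2a3 ran from -0.401 to 0.202 (0.004 with the markers' median) and Slc16a7 from -0.347 to 0.255. Depth limits Slc16a3 and Slc16a7 most, with counting errors of 20.9 and 15.6% at their lowest counts, which cover counting alone.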
